A study of Homo sapiens with 3 samples.

Results

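The annexins are a family of calcium-dependent membrane-binding proteins, and 8 of their genes are described here in TC32, an established human Ewing sarcoma cell line that carries the EWS-FLI1 fusion. The genes are ANXA1, ANXA2, ANXA3, ANXA4, ANXA5, ANXA6, ANXA7 and ANXA11. They were chosen by name, as the rows that carry exactly these symbols, and are 8 of 22714 gene names. Each stood on 1 locus of its own, and 7 of the 8 reached a mean deposited FPKM (fragments scaled to transcript length and library size) of 1, the limit for a gene to be compared. ANXA3 did not reach it, so its values are given outside every count.

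There were 3 RNA-seq libraries of TC32, 1 per group, and total RNA was the starting material of each. The control library is labelled as a wild-type control, with no word on whether it received the vehicle DMSO or a control hairpin. The knockdown library came from cells in which EWS-FLI1 was depleted, for a time that the labels do not give, and its values stand under the heading dEF although its title reads shEF. The third library came from cells kept for 15 hours in 3 µM of the compound that the title calls YK, known as an inhibitor of the contact between EWS-FLI1 and the RNA helicase DHX9. All 3 libraries are of the same cell line, so nothing here speaks for other tumours. No library has a replicate, so no test was made, no p-value is given, and higher and lower describe these libraries only.

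Annexins bind the acidic phospholipids of membranes when calcium rises, through a conserved core of repeated domains. Their N-terminal tails differ and carry the sites for partners, above all small EF-hand proteins of the S100 family. They are known for membrane repair, vesicle traffic, assembly of plasmin at the cell surface and, for ANXA1, damping of inflammation, and several are abundant in mesenchymal cells.

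Levels are given as scaled FPKM, which is per length of transcript and can be compared between genes. The scaling sets the median compared gene level between libraries, because the deposited values of the treated libraries were lower for most named genes. The multipliers were 0.325 for the control, 1.44 for knockdown and 2.12 for YK. A relative log2 ratio is the difference of log2(scaled FPKM + 1), which understates the change of scarce genes. Genes with a ratio of at least 1 are called higher, and those at or under -1 lower. Standard errors (SE) cover estimated counting error only, not the variation from culture to culture.

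FLI1, which gives the DNA-binding part of the fusion, had 21.4 scaled FPKM in the control, 2.13 after knockdown and 17.6 with YK. Of 6 Ewing sarcoma markers, CD99 was listed at 0 in all 3 libraries, a value that can also stand for a failed estimate, and the other 5 were found in every library. After knockdown 4 of these 5 were lower, where 17% of all compared genes were, and NKX2-2 stood at a relative log2 ratio of 0.43. With YK 0 of the 5 were called, against 2.41% of all compared genes higher and 1.69% lower, and CCND1 had the lowest ratio at -0.70. The summed scaled FPKM of the 5 was 261 in the control, 51.2 after knockdown and 248 with YK. STEAP1 made up most of each sum, at 177, 30.8 and 148. The 5 fibroblast markers summed to 26.3, 55.1 and 27.8 scaled FPKM in the same order. Of the 4 that could be compared 3 were higher after knockdown and 1, DCN, was lower at a relative log2 ratio of -1.86. Of all compared genes 17.3% were higher and 17% lower. With YK 0 of these 4 markers were called. THY1, the fifth, had 0.154, 0.0381 and 4.48. The endothelial list, with 0 of its 4 genes at the limit for comparison, summed to 0.131, 0.642 and 1.15. CD68 made up most of the leukocyte sums of 20.8, 28.2 and 15.1. The defining leukocyte gene PTPRC, also below that limit, was at 0.0771, 0.294 and 0.616. Loci without a gene name stood higher in the treated libraries too, with medians of 0.0278, 0.200 and 0.318 scaled FPKM in the same order. The part of these markers in the annexin values was not tested. In bulk RNA, fewer cells with a transcript and less transcript per cell cannot be told apart.

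ANXA2 and ANXA11 were the annexins that stood higher after knockdown of EWS-FLI1. Of the 7 compared, 2 were called higher and 0 lower, while 17.3% of all 9939 compared genes were called higher and 17% lower. With YK, 0 of 7 were called in either direction, against 2.41% of all genes higher and 1.69% lower. The median ratio of the 7 was 0.025 after knockdown, where all compared genes had 0.0064, and 0.40 with YK, where all genes had 0.029. Other scales add or remove calls, and 15 of 207 ratios of single annexins under another setting had the opposite sign, 8 of them as deposited. Of the 207, 78 could not move and 21, under a pseudocount of 0.1, could move but not turn sign. As deposited, where the median gene stood at -2.20 with YK, the ratios with YK were -1.95 for ANXA1, -1.75 for ANXA2, -1.85 for ANXA4 and -1.57 for ANXA11.

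**Figure D1:**
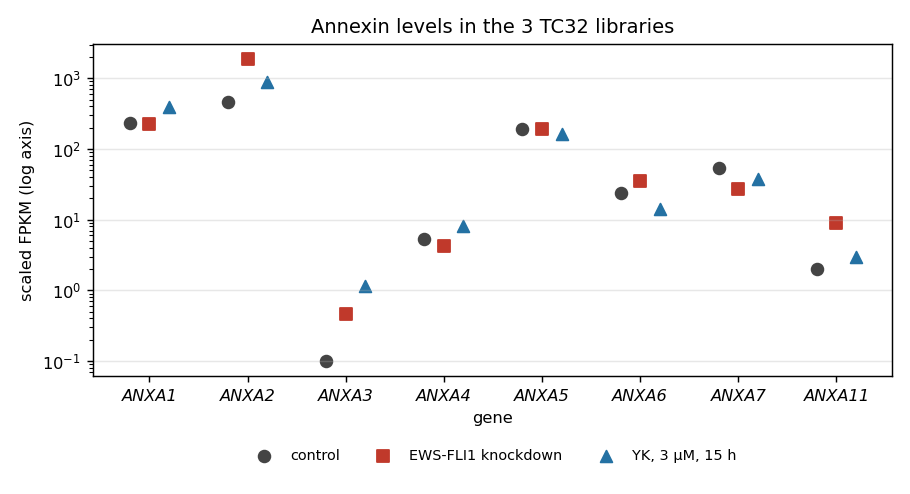
Scaled FPKM of the 8 annexins (log axis) in the control (circles), knockdown (squares) and YK (triangles) libraries, 1 point per library. ANXA2 is the highest in every library, and its knockdown value of 1867 stands above 459 in the control and 890 with YK.

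ANXA2 pairs with the S100 protein S100A10, also called p11, into a complex that links membranes to actin and gathers plasminogen and its activator at the cell surface. Its deposited FPKM was 1414 in the control, 1297 after knockdown and 420 with YK. After scaling these were 459, 1867 and 890, so the control was the lowest and the knockdown library the highest. ANXA2 was thus 4.06-fold higher after knockdown (relative log2 ratio 2.02, SE 0.0093) and 1.94-fold higher with YK (0.95, SE 0.011), the latter just short of the threshold. Of all compared genes, 5.0% stood above it after knockdown and 2.7% with YK. As deposited its knockdown ratio was -0.12, where the median gene stood at -1.75. Scaled over every name above 0 the ratio with YK was 0.43, where the median gene stood at -0.38.

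S100A10 was high in the same libraries as ANXA2. It had 13.8 scaled FPKM in the control, 56.7 after knockdown and 25.7 with YK, with relative log2 ratios of 1.96 (SE 0.064) and 0.86 (SE 0.073), and -0.11 after knockdown as deposited. The ratio of ANXA2 to S100A10 within a library needs no scaling between libraries. It was 33.3 (SE 1.39) in the control, 33.0 (SE 0.73) in the knockdown library and 34.6 (SE 1.18) with YK. The intervals of 1 SE around these 3 ratios overlapped, while ANXA2 itself was 4.07-fold and S100A10 4.11-fold higher after knockdown with nothing added to the scaled values.

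The stretches before the start sites of this pair are shown because both genes were high in the same libraries, with ANXA11 as the other annexin called higher and ANXA7 as the one with the lowest ratio after knockdown. They come from RefSeq on GRCh38.p14 and give the 250 bases before the start on the gene's own strand, here minus for all 4. They are chr15:60397987-60398236 for ANXA2, chr1:151993860-151994109 for S100A10, chr10:80205538-80205787 for 1 of the 3 starts of ANXA11, and chr10:73414059-73414308 for ANXA7. Capitals mark GGAA or its reverse complement TTCC, the core letters that ETS factors such as FLI1 bind, and TGANTCA, the letters that AP-1 factors bind.
ANXA2: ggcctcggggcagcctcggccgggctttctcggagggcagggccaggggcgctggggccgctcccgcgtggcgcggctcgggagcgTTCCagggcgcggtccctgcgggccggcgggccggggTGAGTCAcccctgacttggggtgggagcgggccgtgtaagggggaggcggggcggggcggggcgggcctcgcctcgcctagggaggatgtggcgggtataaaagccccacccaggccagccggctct
S100A10: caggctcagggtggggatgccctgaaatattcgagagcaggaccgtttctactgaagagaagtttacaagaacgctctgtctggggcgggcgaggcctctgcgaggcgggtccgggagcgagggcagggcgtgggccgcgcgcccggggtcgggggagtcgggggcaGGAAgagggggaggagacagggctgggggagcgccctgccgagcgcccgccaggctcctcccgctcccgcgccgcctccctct
ANXA11: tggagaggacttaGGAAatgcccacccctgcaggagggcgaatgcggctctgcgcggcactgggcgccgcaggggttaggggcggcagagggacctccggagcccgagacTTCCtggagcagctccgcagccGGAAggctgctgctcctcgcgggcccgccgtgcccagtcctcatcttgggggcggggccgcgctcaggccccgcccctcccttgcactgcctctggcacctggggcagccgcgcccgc
ANXA7: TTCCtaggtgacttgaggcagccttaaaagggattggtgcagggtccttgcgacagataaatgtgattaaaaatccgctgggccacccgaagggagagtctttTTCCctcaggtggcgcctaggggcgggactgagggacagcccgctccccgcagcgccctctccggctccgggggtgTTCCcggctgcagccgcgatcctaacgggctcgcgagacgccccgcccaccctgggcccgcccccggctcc
All 8 annexins matched this table, with 12 start sites between them. GGAA was found on either strand in all 12 windows, from 1 to 5 times each, and in 92.7% of the 35116 windows of the table. The doubled form GGAAGGAA was in 0 of the 12, against 3.06% of all windows. TGANTCA, which does not overlap the other motif, was in 1 of the 12, that of ANXA2 at 127 bases before the start, against 6.57% of all windows. A match describes the letters and shows no binding.

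ANXA2 has processed pseudogenes, and reads of near-identical copies can be divided among them. ANXA2P2 had 1.74 scaled FPKM in the control, 6.77 after knockdown and 3.01 with YK. That was 0.380% of ANXA2 in the control, 0.363% after knockdown and 0.338% with YK. ANXA2P1 was listed at 0 in the control and had 0.0791 and 0.0504 in the treated libraries, and ANXA2P3 was listed at 0 throughout. ANXA2R, a gene named as a receptor of ANXA2 and no annexin itself, had 1.09, 0.632 and 2.28 scaled FPKM, so it was lowest where ANXA2 was highest. Its relative log2 ratios were -0.36 after knockdown and 0.65 with YK.

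ANXA11 has a long, flexible N-terminal tail, binds S100A6 and the calcium sensor PDCD6, and tethers RNA granules to lysosomes. Its deposited FPKM was 6.11, 6.17 and 1.39 in the control, knockdown and YK libraries, and scaled it was 1.98, 8.88 and 2.94. The knockdown library stood apart, and the other two lay close together. ANXA11 was 3.31-fold higher after knockdown (relative log2 ratio 1.73, SE 0.056), with 6.8% of compared genes above it. With YK its ratio was 0.40 (SE 0.067), and as deposited the knockdown ratio was 0.013, where the median gene stood at -1.75. ANXA11 falls below a limit of 5 on mean FPKM, which leaves ANXA2 as the only call.

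ANXA7, the closest to ANXA11 in its long tail and a partner of the calcium sensor sorcin, had the lowest relative log2 ratio of the compared annexins after knockdown. It had 53.9 scaled FPKM in the control, 27.0 after knockdown and 37.4 with YK. Both treated libraries were below the control, at relative log2 ratios of -0.97 (SE 0.033) and -0.52 (SE 0.030). The knockdown value lay just inside the threshold, and was -1.62 when scaled over every name above 0, -1.09 on the upper quartile and -1.33 on centred deposited ratios. With YK the ratio was -1.03 when scaled over every name above 0, a lower call, and -0.96 on centred deposited ratios. Against genes of like abundance the knockdown ratio was -0.078, above that of ANXA4 at -0.43, since the highest of 5 abundance groups, which holds ANXA7, had a median of -0.89 after knockdown. ANXA11 relative to ANXA7 within a library was 3.68% in the control, 32.9% after knockdown and 7.86% with YK.

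ANXA1, made in response to glucocorticoids and a ligand of formyl peptide receptors, had the second highest level in every library. Its scaled FPKM was 232 in the control, 224 after knockdown and 391 with YK. The control and knockdown libraries were nearly level and the YK library stood higher. Its ratio was -0.046 (SE 0.015) after knockdown and 0.75 (SE 0.013) with YK, and 4.8% of compared genes stood above it in the latter. After knockdown it was 0.85 relative to genes of like abundance and -0.71 when scaled over every name above 0, so its direction there is not settled by these data. With YK it was 0.23 on that last scale and 0.26 on centred deposited ratios.

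ANXA5, which binds phosphatidylserine and serves as the common probe of dying cells, had nearly level scaled values in the control and after knockdown. It had 191 scaled FPKM in the control, 194 after knockdown and 163 with YK, so the highest and the lowest library were 1.19-fold apart. Its relative log2 ratios were 0.025 (SE 0.019) and -0.23 (SE 0.020). Against genes of like abundance the knockdown value was 0.92, as deposited it was -2.12, and on the upper quartile -0.096. Scaled over every name above 0 the values were -0.64 and -0.74. ANXA1 relative to ANXA5 was 1.21 in the control, 1.15 after knockdown and 2.40 with YK, a shift that no scaling between libraries can alter.

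ANXA6, which has a longer core than the other annexins and acts in cholesterol traffic of late endosomes, parted between the treated libraries. It had 23.5 scaled FPKM in the control, 35.2 after knockdown and 14.3 with YK. The knockdown library was above the control and the YK library below it. The relative log2 ratios were 0.56 (SE 0.038) after knockdown and -0.68 (SE 0.049) with YK, the latter with 4.8% of compared genes below it. Scaled over every name above 0 these were -0.078 and -1.18, and on centred deposited ratios 0.23 and -1.04. As deposited the knockdown ratio was -1.53, and against genes of like abundance it was 0.98, just short of the threshold. ANXA6 relative to ANXA7 was 0.436 in the control, 1.31 after knockdown and 0.382 with YK.

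ANXA4, known from secretory epithelia, had 5.33 scaled FPKM in the control, 4.17 after knockdown and 8.09 with YK. It was lowest after knockdown and highest with YK, at relative log2 ratios of -0.29 (SE 0.082) and 0.52 (SE 0.074). The latter was 0.073 when scaled over every name above 0. ANXA11 stood at 0.372 of ANXA4 in the control and 0.363 with YK, but at 2.13 times ANXA4 after knockdown, so the order of these scarce members was reversed there.

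**Figure D2:**
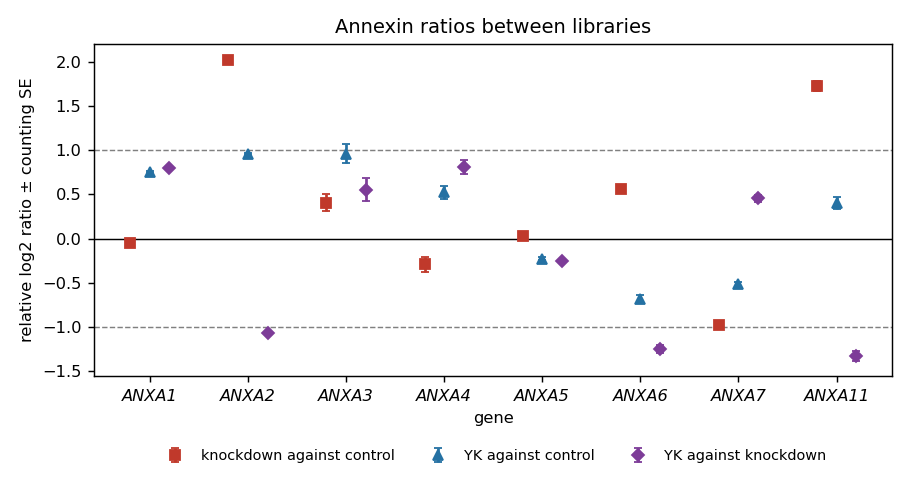
Relative log2 ratios of the 8 annexins, with bars of 1 counting SE (often smaller than the symbol), for knockdown against control (squares), YK against control (triangles) and YK against knockdown (diamonds). Dashed lines stand at -1 and 1. ANXA2 and ANXA11 pass the upper line after knockdown, and ANXA2, ANXA6 and ANXA11 pass the lower line in YK against knockdown.

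ANXA3, a scarce member here, had 0.0997 scaled FPKM in the control, 0.457 after knockdown and 1.14 with YK. The control value rests on about 7.12 fragments, against 27.8 and 64.5 in the treated libraries. Loci without a gene name also stood higher in the treated libraries after scaling, with medians of 0.0278, 0.200 and 0.318 scaled FPKM. ANXA3 stood above 92.3%, 95.1% and 99.4% of them, in the same order of libraries.

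Of the annexins outside the 8, ANXA9 had 0.418, 0.827 and 0.822 scaled FPKM in the control, knockdown and YK libraries. ANXA10 had 0.0489, 0.256 and 0.519, and ANXA13 had 0.0295, 0.549 and 0.972. All 3 were below the limit for comparison, and each was lowest in the control, as the loci without a name were. ANXA8 and ANXA8L2 were listed at 0 in every library, and they are near-identical copies whose reads may not have been placed.

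The annexins thus held a fixed order at the top and changed places below. In each library ANXA2 was followed by ANXA1 and ANXA5. Next came ANXA7 and ANXA6 in the control and with YK, and ANXA6 and ANXA7 after knockdown. ANXA4 stood above ANXA11 in the control and with YK and below it after knockdown, and ANXA3 was last throughout. Neighbours in this order differed by more than counting error, but without replicates no other spread is known.

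The makeup of the family within a library does not depend on scaling between libraries. ANXA2 gave 47.5% of the summed FPKM of the 8 genes in the control, 79.1% after knockdown and 59.0% with YK. ANXA1 gave 24.0%, 9.50% and 25.9%, and ANXA5 gave 19.8%, 8.23% and 10.8%. ANXA7 gave 5.58%, 1.14% and 2.48%. ANXA2 was 1.98 times ANXA1 in the control, 8.32 times after knockdown and 2.28 times with YK. The share of ANXA2 was thus largest in the knockdown library and that of ANXA1 smallest there.

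**Figure D3:**
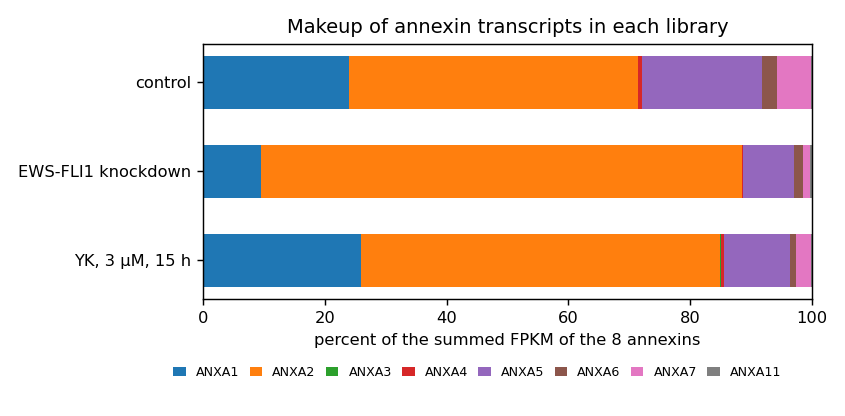
Share of each annexin in the summed deposited FPKM of the 8 genes, 1 bar per library. ANXA2 takes 79.1% in the knockdown library, against 47.5% in the control and 59.0% with YK.

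Set directly against knockdown, YK left 3 of the 7 compared annexins lower and 0 higher, where 14.5% of all compared genes were lower and 15.3% higher. ANXA11 was 2.51-fold lower with YK (relative log2 ratio -1.33, SE 0.058), ANXA6 was 2.37-fold lower (-1.24, SE 0.048) and ANXA2 was 2.10-fold lower (-1.07, SE 0.0079). ANXA4 and ANXA1 had the highest ratios, at 0.81 (SE 0.080) and 0.80 (SE 0.014). ANXA7 stood at 0.46 and ANXA5 at -0.25. ANXA2 stood at -0.92 when scaled over every name above 0 and at -0.90 on the upper quartile, which ends its call. ANXA1 turned to -0.045 against genes of like abundance and ANXA7 to -0.39, while ANXA5 became -1.09.

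**Figure D4:**
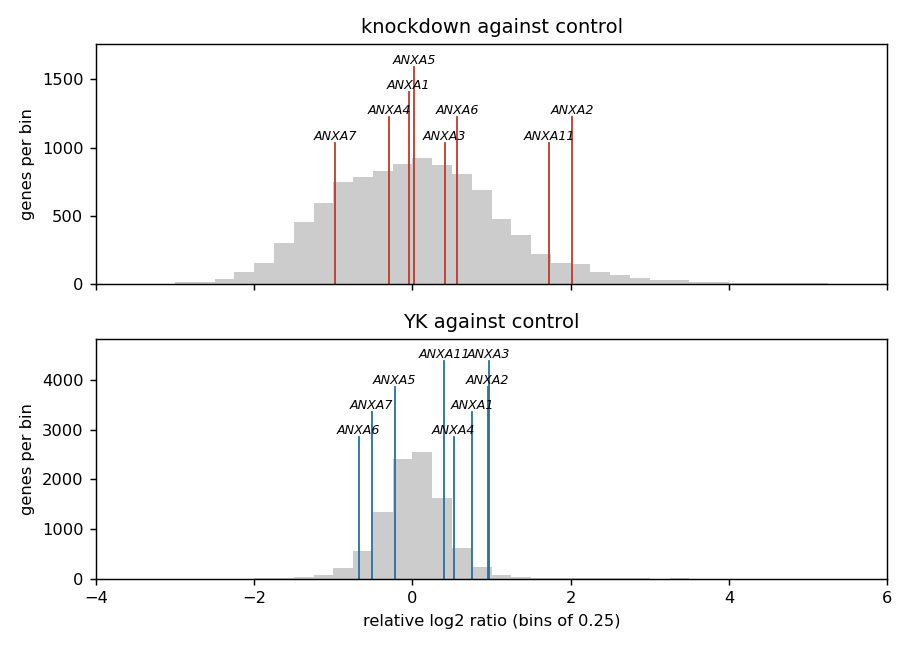
Numbers of compared genes (grey) by relative log2 ratio in bins of 0.25, for knockdown (upper panel) and YK (lower panel) against control, with lines at the annexins. ANXA3 is drawn but was not among the compared genes. The annexins spread from -0.97 to 2.02 after knockdown and from -0.68 to 0.96 with YK.

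The EF-hand ligands of annexins differed in direction. Of the 7 on that list that could be compared, S100A10 was the 1 called higher after knockdown, and S100A4, GCA and S100A6 were the 3 called lower, where 17.3% of all compared genes were higher and 17% lower. Against genes of like abundance S100A10 stayed higher, at 2.86, and 0 were lower. With YK, S100A6 and S100A4 were called higher and 0 lower, where 2.41% of all compared genes were higher. The list's median was -0.72 after knockdown, 0.17 against genes of like abundance, and 0.56 with YK, beside 0.0064 and 0.029 for all compared genes. S100A11, the ligand of ANXA1, had 286 scaled FPKM in the control, 173 after knockdown and 422 with YK. Its ratio to ANXA1 was 1.23, 0.770 and 1.08 in that order, a wider range than that of ANXA2 to S100A10. Its relative log2 ratio after knockdown was 0.17 against genes of like abundance, with the sign turned.

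S100A6, a ligand of ANXA11 and ANXA2, had 5.38 scaled FPKM in the control, 2.18 after knockdown and 156 with YK. The YK library stood far above the others, at a relative log2 ratio of 4.62 (SE 0.096), while after knockdown it was -1.01 (SE 0.16). S100A4, a motility protein, had 15.2, 5.27 and 37.2 scaled FPKM, at ratios of -1.37 and 1.24, the latter 0.75 when scaled over every name above 0. Sorcin, encoded by SRI, had 66.7, 46.9 and 78.3, so the ligand of ANXA7 was lowest after knockdown as ANXA7 was, though against genes of like abundance SRI stood at 0.39. PDCD6 stood only in a locus joined with a neighbour and was not used.

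Genes of the plasmin system, which ANXA2 with S100A10 assembles at the cell surface, were mostly higher after knockdown. Of the 6 compared, 4 were higher and 2 lower, where 17.3% and 17% of all compared genes were. The median was 1.8 beside 0.0064 for all compared genes. PLAU, 1 of the 4, passed the limit for comparison only through the knockdown library, so its call is not independent of that limit. Its deposited FPKM was 0.120 in the control, 6.19 after knockdown and 0.199 with YK. At a mean FPKM of at least 5, 3 of 5 were higher and 2 lower, where 11.2% and 27.3% of all compared genes were. As deposited, 2 of the 6 were higher and 2 lower, with a median of -0.18. Of all compared genes 3.03% were then higher and 71.4% lower, and the median gene stood at -1.75. PLAU, the urokinase activator, had 0.039 scaled FPKM in the control, 8.91 after knockdown and 0.421 with YK (relative log2 ratios 3.25 and 0.45). Its receptor PLAUR had 3.08, 12.6 and 6.07, with ratios of 1.73 and 0.79. SERPINE2, a protease inhibitor, stood at 3.96 and the protease CTSB at 1.86 after knockdown. As deposited PLAUR stood at -0.11 and CTSB at -0.25.

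The 2 lower genes of the plasmin list were plasminogen receptors, ENO1 at -1.30 and PLGRKT at -1.40. Against genes of like abundance these were -0.40 and -0.50, so 0 were lower and 4 higher. PLAT, the tissue activator that ANXA2 binds, missed the limit for comparison at 0.170, 2.37 and 0.551 scaled FPKM in the control, knockdown and YK libraries. Plasminogen itself, PLG, was at 0.0239, 0.0532 and 0.0422, below the median of loci without a name in each. With YK, 0 of the 6 were called in either direction, where 2.41% of all compared genes were higher and 1.69% lower. The median of the 6 was 0.31, and -0.029 when scaled over every name above 0, where the median gene stood at -0.38. PLAU was called higher with a pseudocount of 0.1, at 1.91, and on centred deposited ratios, at 2.30. The control value of PLAU rests on about 4.55 fragments. In the control and with YK it stood near loci without a name, whose medians were 0.0278 and 0.318 scaled FPKM. Whether its ratio with YK differs from theirs was not tested.

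Of 13 compared genes of membrane repair, 5 were higher and 2 lower after knockdown, with a median of 0.74, and the lower share is near the 17% of all compared genes (17.3% were higher). MYOF and PTRF, 2 of the 5, passed the limit for comparison only through the knockdown library. Their deposited FPKM was 0.193 and 0.413 in the control, 10.8 and 4.19 after knockdown, and 0.279 and 0.387 with YK. At a mean FPKM of at least 5, 2 of 8 were higher and 2 lower, where 11.2% and 27.3% of all compared genes were. The median was then 0.36, where all compared genes had -0.47. Scaled over every name above 0, 3 of the 13 were higher and 2 lower, and the median was 0.20. Of all compared genes 9.17% were then higher and 33.8% lower, and their median was -0.50. As deposited 3 of the 13 were higher, 6 lower and the median -0.95. Of all compared genes 3.03% were higher and 71.4% lower as deposited, and their median was -1.75. MYOF, the ferlin myoferlin, had 0.0627 scaled FPKM in the control, 15.5 after knockdown and 0.590 with YK (relative log2 ratios 3.96 and 0.58). Its control value rests on about 12.1 fragments. Loci without a name had medians of 0.0278 scaled FPKM in the control and 0.318 with YK. PTRF, which coats caveolae, stood at 2.63 after knockdown and AHNAK, a giant scaffold that binds ANXA2 with S100A10, at 2.42. The control value of PTRF, 0.134 scaled FPKM, rests on about 24.1 fragments. The calpain genes CAPN2 and CAPNS1 stood at 1.54 and 1.08, but at 0.95 and 0.46 when scaled over every name above 0 and at -0.40 and -0.95 as deposited. CAPNS1 also missed the threshold on the upper quartile at 0.96 and on centred deposited ratios at 0.80. CAV1, the caveolin, went the other way, with 248 scaled FPKM in the control, 84.1 after knockdown and 694 with YK (ratios -1.55 and 1.48). VPS4B, an ATPase of the ESCRT machinery, was the other lower gene at -1.32, while its paralogue VPS4A stood at 0.74 and was not called. Against genes of like abundance CAV1 stood at -0.65 and VPS4B at -0.42 after knockdown. With YK, CAV1 was the 1 of 13 called higher and 0 were lower, where 2.41% of all compared genes were higher and 1.69% lower. The median of the 13 was 0.38. CAV1 stood at 0.97 when scaled over every name above 0, which ends its call. With a pseudocount of 0.1 or on centred deposited ratios 5 of 13 were higher, where 6.33% and 12.3% of all compared genes were. MYOF, PTRF and the calpain gene CAPN1, at 0.487 scaled FPKM in the control, were among the 5 in both.

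Receptors of ANXA1 were scarce in every library. FPR1 and FPR3 stayed at or under 0.108 scaled FPKM, and FPR2 was listed at 0 in the control and with YK. Of the 3 compared genes on that list, PLA2G4A, the phospholipase that ANXA1 restrains, was the 1 called lower after knockdown, at 25.6 scaled FPKM in the control, 6.28 after knockdown and 14.8 with YK (ratio -1.87), and 17% of all compared genes were lower. NR3C1, the glucocorticoid receptor, and its target TSC22D3 stood at 0.96 and 0.99 after knockdown, just short of the threshold, and at -0.076 and -0.032 with YK. With a pseudocount of 0.1 their knockdown ratios were 1.16 and 1.42, and both were called, where 24.3% of all compared genes were higher. On centred deposited ratios 1 of the 3 compared genes was called higher, where 22.2% of all compared genes were. NR3C1 stood at 0.43 when scaled over every name above 0 and at 0.86 on the upper quartile. As deposited NR3C1 stood at -0.82, where the median gene stood at -1.75. TSC22D3 had a deposited FPKM of 3.65 in the control and 2.32 after knockdown.

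**Figure D5:**
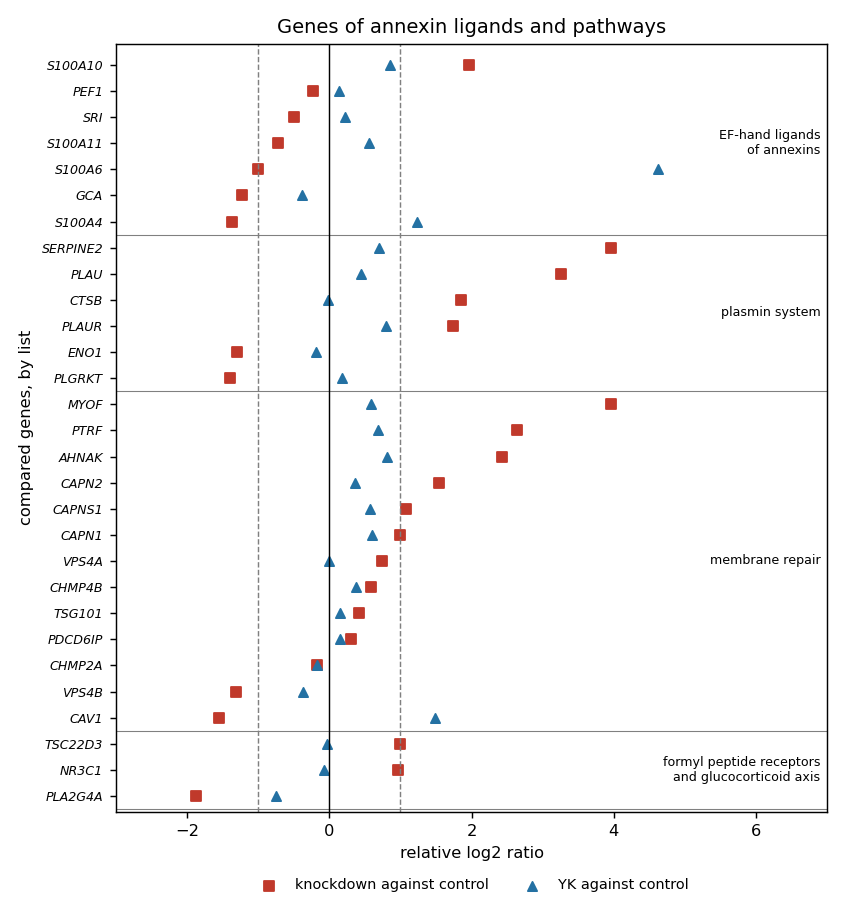
Relative log2 ratios of the compared genes on the 4 lists tied to annexins, after knockdown (squares) and with YK (triangles), with dashed lines at -1 and 1. SERPINE2 and MYOF, both at 3.96, are the highest after knockdown and S100A6 at 4.62 the highest with YK.

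Genes near ANXA2 and ANXA11 were sought by the distance between their pairs of relative log2 ratios to control, over the 3 libraries. Nearest to ANXA2 were CLSTN1 at 0.027, C7orf69 at 0.030 and the joined locus FAM89A,MIR1182 at 0.041. Within a distance of 0.25 of ANXA2 there were 30 genes. Nearest to ANXA11 were CHFR at 0.024, the joined locus APOBEC3A,APOBEC3A_B,APOBEC3B at 0.032 and FAM219B at 0.035, among 152 genes within 0.25. These neighbours were scarce beside ANXA2, with CLSTN1 at 0.559 scaled FPKM in the control, 5.37 after knockdown and 2.07 with YK. C7orf69 had 0.0830, 3.48 and 1.11 in the same order. Since 1 is added before the ratio, a near distance hides larger changes of scarce genes. With nothing added, the 3 neighbours of ANXA2 changed more after knockdown than its own 4.07-fold.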

How the data were processed

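The authors deposited FPKM for 88434 loci in each of 3 libraries, 1 per group, with a gene name on 24751. The submitters' processing notes name Cufflinks 2.2.1, TopHat and CASAVA 1.8.2, with the build GRCh37 (hg19). Annotation, filters and any scaling of the libraries against each other were not given in the sources read. Per the labels' protocols, cDNA was made with a SMARTer kit, sheared and amplified by PCR.

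Loci of the same name were summed, giving 22714 names, of which 9939 had a mean FPKM of at least 1. For the 9883 of these found in every library, each value was set against the geometric mean of that gene, and a library was divided by its median quotient, which gives the multipliers in the results. The scale was settled on an earlier look at these data, and taking it over the compared genes rather than all 17160 names above 0 was chosen to match that earlier work, with the other version as an added alternative. Ratios are differences of log2(scaled FPKM + 1). Abundance was ranked by mean scaled level. The code was tested on simulated data with few changed genes, even in both directions and with no trend on abundance. That test cannot tell whether the scale suits these libraries.

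A single fragment on a 1 kb transcript equalled roughly 0.0657 FPKM (control), 0.0174 (knockdown) and 0.0127 (YK), taken from the lowest values of single-transcript olfactory receptor genes. With transcript lengths of GENCODE release 29, found for 88.0% of compared genes, this gave 30514415, 18924681 and 23023929 fragments. The control figure exceeds what the plain definition of FPKM allows, so SEs are rough.

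The 8 members and the gene lists were chosen with earlier results of these data known. Named were the 8 members, all names beginning with ANXA, genes of 4 lists past the threshold or at their ends, and the 3 genes nearest to each of the 2 members with the largest knockdown ratios. Other genes of the lists were named after their values were seen. A gene of the plasmin list is not reported here and is left out of its counts. CHMP4A, FKBP5 and PDCD6 stood only in joined names and were not used. The other settings tried were deposited values, centred ratios, upper quartile scaling, a pseudocount of 0.1, no filter, a limit of 5, ratios against genes of like abundance, and joined names left out. Python 3.11.15 with pandas 2.3.3 was used.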

Additional observations from a re-analysis of the deposited data

How the results depend on the processing

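With 1 library per group no replicate could be left out. No paired analysis was possible because each group has 1 library. On deposited values with no scaling, 0 annexins were higher and 5 lower after knockdown, 7 were lower with YK, and the ratio of ANXA2 after knockdown turned to -0.12. The same values put 71.4% and 92.2% of all compared genes lower. With a mean FPKM of at least 5, 1 annexin was higher after knockdown, since ANXA11 was no longer compared. Centred deposited ratios gave 1 lower after knockdown and 1 lower with YK. Upper quartile scaling gave 1 lower after knockdown and 1 higher with YK. Scaling over every name above 0, added after seeing the data, gave 1 lower after knockdown and 2 lower with YK, ANXA6 and ANXA7, with the median gene at -0.50 and -0.38. Adding the pseudogenes to ANXA2 moved no count. Of 207 ratios of single annexins under another setting, 78 could not move, since leaving out joined names, the limits on FPKM and the pseudogenes do not touch them. Another 21, under a pseudocount of 0.1, could move but not turn sign. Of the rest, 15 had the opposite sign. They were 8 as deposited, 3 against genes of like abundance, 2 scaled over every name above 0, 1 on the upper quartile and 1 on centred ratios. What moved them was not tested, other than the shift of the scale itself. Depth limits ANXA3 and the annexins outside the 8, and the absence of replicates limits every value.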
